A study of Mus musculus with 18 samples.

Results

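The comparison described here sets the 6 libraries made with the Jmjd1c guides e20.1 and e21.1 against the 6 libraries made with the guides e12.3 and e12.4, which are 12 of the 18 libraries of the series. Members were chosen by guide name alone, with 3 libraries per guide, and 11550 of the 23899 genes in the table averaged 1 FPKM or more (fragment counts scaled to transcript length and library size) over the 18 libraries and were tested. All libraries came from cultured mouse leukaemia cells that express the MLL-AF9 fusion and Cas9, grown with 10 ng/ml mouse interleukin-3 and 10% FBS. The groups differ in the guide they carry: e20.1, e21.1, e12.3, e12.4, a control guide against Renilla, or the label mock, which is not explained further. Poly(A) RNA was sequenced with a strand-preserving kit. The labels describe a primary leukaemia and do not say how many mice or clones the cells came from. They do not say whether the 3 libraries of a guide were separate cultures, so p-values measure the spread between these libraries, which may be technical. The study's design text states that guides were directed at the jumonji and the zinc finger domains of JMJD1C, and the question of the comparison is whether the transcriptome differs with the domain that is cut.

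JMJD1C belongs to the KDM3 family of nuclear proteins, together with KDM3A and KDM3B. These proteins carry a zinc finger of paired cysteines in the middle part and a JmjC domain near the carboxyl end, which in active family members binds iron and 2-oxoglutarate and removes methyl groups from histone H3 lysine 9. Cas9 cuts are repaired with small insertions or deletions, which can end the reading frame or leave an in-frame protein with a damaged domain, so guides placed in different domains can give different proteins. MLL-AF9 is a fusion oncoprotein that holds myeloid progenitors in a self-renewing state through genes such as Hoxa9 and Meis1, and interleukin-3 signals through the receptor chains Il3ra and Csf2rb to STAT5 and RAS.

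Reading e12, e20 and e21 as exon numbers gives the coding exons below, shown because they are what separates the guide pairs. They are taken from GENCODE vM21 on GRCm38, chromosome 10, plus strand, in the Jmjd1c transcript with 25 exons and 2350 codons. Capitals mark the in-frame TGT and TGC codons, which encode cysteine.

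exon 12: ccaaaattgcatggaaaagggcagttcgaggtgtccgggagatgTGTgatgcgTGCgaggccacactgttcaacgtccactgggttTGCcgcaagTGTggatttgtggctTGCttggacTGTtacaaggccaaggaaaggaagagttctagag
exon 20: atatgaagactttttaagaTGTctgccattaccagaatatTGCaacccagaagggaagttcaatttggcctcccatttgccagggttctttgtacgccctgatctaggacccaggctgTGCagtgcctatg
exon 21: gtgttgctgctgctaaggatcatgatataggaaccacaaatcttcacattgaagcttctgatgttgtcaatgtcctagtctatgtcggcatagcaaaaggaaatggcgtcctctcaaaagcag

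Exon 12 spans 67233371-67233523 and codons 1642 to 1693, and its 6 cysteine codons lie in CxxC pairs, the spacing found in zinc fingers, within 153 bases. Exon 20 spans 67245506-67245636 (codons 2087 to 2131, 3 cysteine codons) and exon 21 spans 67246034-67246156 (codons 2131 to 2172, 0 cysteine codons), in the end part of the protein where the JmjC domain lies. Under this reading the e12 guides cut the zinc finger and the e20 and e21 guides the JmjC domain. The reading depends on the transcript: in those with 26 exons the exon with 6 cysteine codons is number 13, number 12 is the exon before it (67231972-67232186) with 1 cysteine codon, and the exon called 20 above is number 21. The sources used here give neither guide sequences nor cut sites, so the pairs are called by their guide names. The terms exon 12 and exon 20/21 guides or pair stand for those names only, not for a known cut site.

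Several libraries stood apart within their groups. On the first principal component of the 12 guide libraries (40.3% of the variance), e12.3 replicate 3 and e21.1 replicate 3 scored 47.06 and 45.42, and the other 10 libraries between -12.2 and -4.96. On the second (16.8%), e20.1 replicate 2 scored -41.78. Those on the first component were also the deepest of the 12, at an estimated 71.3 M and 80.5 M reads against 24.4 to 46.8 M for the other 10. Each pair holds 1 of them, and results are given with all 12 libraries and without these 2. Markers of the labelled myeloid leukaemia were present in all 18 libraries: Mpo at 133 to 1376 FPKM, Elane at 461 to 2012, Kit at 17.7 to 50.8, Hoxa9 at 64.2 to 119 and Spi1 at 152 to 202. Cd3e, Cdh5 and Col1a1, which define T cells, endothelium and fibroblasts, reached at most 0.25 FPKM. Other T cell genes were not all as low. In the 12 guide libraries Lck was at 1.90 to 9.72 FPKM and Cd3d at 0.61 to 2.11 FPKM. The highest Lck values were in e12.3 replicate 3 (9.72 FPKM) and e21.1 replicate 3 (8.79 FPKM).

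Jmjd1c (ENSMUSG00000037876.17) itself was measured at 66.6, 58.8 and 56.2 FPKM in e12.3 cells and at 59.7, 74.4 and 70.9 FPKM in e12.4 cells. With e20.1 it was at 63.4, 42.2 and 73.6 FPKM and in e21.1 cells at 62.4, 73.2 and 68.0 FPKM. The pairs overlapped throughout, and the lowest of the 12 values was in e20.1 replicate 2. The means were 63.8 ± 11.6 FPKM with e20.1 and e21.1 (SD, n = 6) and 64.4 ± 7.33 FPKM with e12.3 and e12.4 (SD, n = 6), a log2 difference of -0.03 with a 95% interval of -0.28 to 0.22. An exact two-sided permutation test over 924 arrangements gave p = 0.877, where 0.00216 is the smallest p it can give. The test takes libraries as the units, although each pair holds 2 guides. Without the 2 libraries that stood apart, the difference weighted by library was -0.09 (exact permutation p = 0.69 over 252 arrangements). Transcript level does not measure how much of the gene was edited. The relatives Kdm3a and Kdm3b, H3K9 demethylases, differed by -0.05 (-0.40 to 0.30) and -0.07 (-0.30 to 0.16) log2 units. Of 25 tested enzymes and readers of H3K9 and H3K36 methylation, 0 were called and the median difference was -0.04, with 19 of 25 lower with e20.1 and e21.1. By library, the list median relative to Renilla was -0.41 in e20.1 replicate 2 and -0.19 to -0.07 in the other guide libraries.

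No gene separated the pairs by the test. Limma called 0 of 11550 genes (0%) at a Benjamini-Hochberg adjusted p under 0.05, higher or lower, and the smallest adjusted p was 0.9997. Unadjusted p-values under 0.05 were found for 179 genes (1.55%), 122 higher (1.06%) and 57 lower (0.494%) with e20.1 and e21.1. That is fewer than the 577.5 genes that evenly spread p-values would give. Fold changes here and below are on the log2(FPKM + 1) scale, exon 20/21 guides minus exon 12 guides, and understate changes of genes near 1 FPKM. The median size of the difference was 0.059 log2 units and the median standard error 0.109. A missed threshold does not show that the pairs act alike, and the intervals show what the data allow: in 11239 genes (97.3%) the 95% interval lay within a 2-fold difference either way, and in 9940 (86.1%) within 0.5 log2 units, a 1.41-fold difference. Among the 9131 genes that averaged 5 FPKM or more these shares were 98.4% and 90.6%. Differences of 2-fold or more were estimated for 31 genes.

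**Figure D1:**
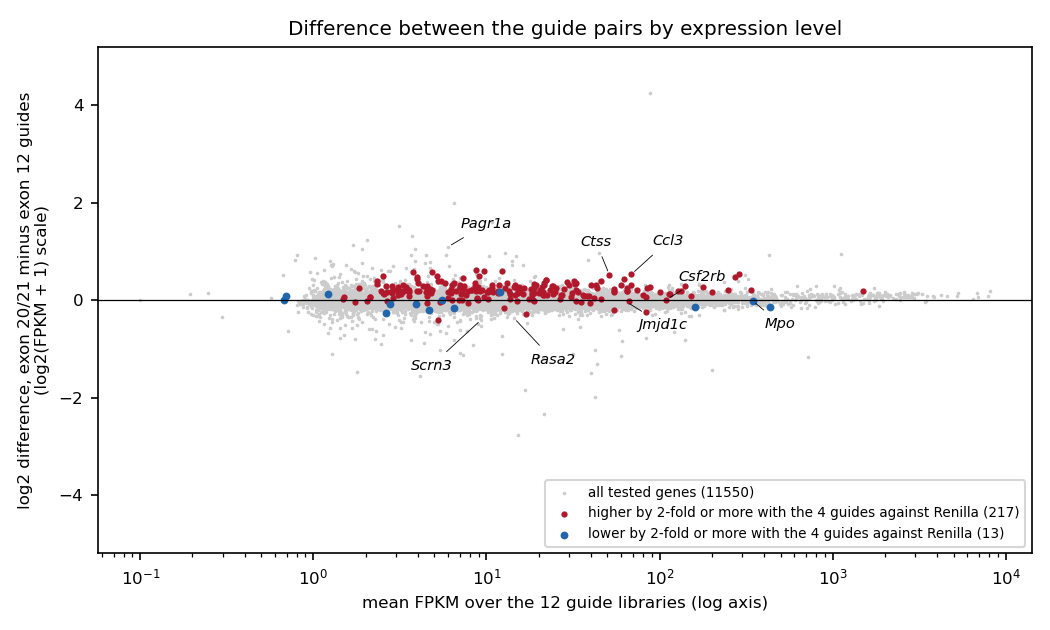
Log2(FPKM + 1) difference between the guide pairs (y axis, exon 20/21 minus exon 12 guides) against mean FPKM over the 12 guide libraries (log x axis), one point per tested gene. Grey points are all 11550 genes, red and blue points are the 217 and 13 genes that stood at least 2-fold higher or lower with the 4 guides together than with Renilla; no point is called, and most red points lie above 0.

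With the 2 libraries that stood apart left out, limma called 1 gene (0.00866%), and 189 genes (1.64%) had an unadjusted p under 0.05. The called gene was BX890553.1, a gene model without an entry in GENCODE vM21, named after its values were seen because it was the single call. It was listed at 0, 0 and 11.3 FPKM in e12.3 cells, at 8.34, 10.8 and 9.56 in e12.4 cells, at 7.25, 21.5 and 17.9 in e20.1 cells and at 16.1, 13.9 and 11.9 in e21.1 cells. The call turns on the 2 values listed at 0 in 1 guide, since the e12.4 libraries lie within the range of the other pair. Its difference was 1.61 with all 12 libraries and 2.26 without the 2 (limma adjusted p = 0.00794). An exact 0 in such a table can be a failed estimate, and this was not tested.

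In 8 genes (0.0693% of those tested) the 6 libraries of one pair did not overlap with the 6 of the other. Of the 924 ways to split 12 libraries 6 against 6, a fraction of 0.00216 separates them fully. The share of separated genes lies below that fraction. Bst1, Csk, Id2, Tax1bp3 and Ugdh were higher with e20.1 and e21.1 in all 6 libraries (5 genes, 0.0433%), and Cpsf2, Scrn3 and Trnt1 lower (3 genes, 0.026%). Bst1, Tax1bp3 and Cpsf2 were singled out after their values were seen, and none of the 8 was called. Tax1bp3 stood at 6.72 ± 0.474 against 5.74 ± 0.152 FPKM, and Cpsf2, a subunit of the mRNA cleavage machinery, at 23.04 ± 1.09 against 24.6 ± 0.233 FPKM (SD, n = 6 each). Bst1, a surface enzyme of bone marrow stroma and myeloid cells, stood at 4.82 ± 2.64 against 2.69 ± 0.377 FPKM.

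Scrn3, which encodes secernin 3 (chromosome 2, 73312601-73337818), had the smallest p of all 11550 genes. It was at 10.2, 11.2 and 9.57 FPKM in e12.3 cells and at 10.5, 11.9 and 10.9 FPKM in e12.4 cells. It was at 9.05, 7.12 and 9.53 FPKM in e20.1 cells and at 6.43, 6.49 and 9.17 FPKM in e21.1 cells. The groups touch almost exactly, at 9.53 and 9.57 FPKM, and the Renilla libraries lay above all 12 at 13.3, 13.4 and 13.3 FPKM. The difference was -0.40 log2 units (SE 0.09, 95% interval -0.59 to -0.20, limma unadjusted p = 0.000532, adjusted p = 0.9997). Without the 2 libraries it was -0.50 (adjusted p = 0.158), and with weights for library quality -0.43, which was called (adjusted p = 0.0377). Trnt1, the enzyme that adds the CCA end to transfer RNAs, ranged from 28.6 to 37.7 FPKM with e20.1 and e21.1 and from 38.0 to 42.0 FPKM with e12.3 and e12.4, a difference of -0.19 (-0.32 to -0.05).

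The other lower genes with the smallest p, not called either, belong to several processes. Rasa2, a GTPase-activating protein that switches RAS off, was at 18.3, 10.8 and 19.6 FPKM in e12.3 cells, 15.2, 15.1 and 18.6 in e12.4 cells, 11.7, 8.68 and 15 in e20.1 cells and 10.99, 14.5 and 13.6 in e21.1 cells. The pairs overlap through e12.3 replicate 2, and all 12 values lie below Renilla (21.2 to 23.3 FPKM). The difference of Rasa2 was -0.36 (-0.66 to -0.06). Dlgap5 and Mis12, proteins of the mitotic spindle and the kinetochore, differed by -0.19 (-0.32 to -0.06) and -0.18 (-0.29 to -0.07). Ets1, a transcription factor of haematopoietic cells, differed by -0.27, Slc40a1, the iron exporter ferroportin, by -0.29, Gtf3c4, a subunit of the RNA polymerase III factor TFIIIC, by -0.31, and the cAMP phosphodiesterase Pde8a by -0.22. Pmpca, Sept11 and Phykpl, a mitochondrial peptidase subunit, a septin and a lysine-breakdown enzyme, lay between -0.19 and -0.17.

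Among the higher genes with the smallest p, Csk, the kinase that holds SRC-family kinases inactive, had the tightest groups. It was at 86.0, 80.1 and 81.7 FPKM in e12.3 cells, 88.4, 89.0 and 81.8 in e12.4 cells, 89.8, 99.6 and 95.3 in e20.1 cells and 94.4, 95.1 and 95.7 in e21.1 cells. Every e20.1 and e21.1 library lay above every e12.3 and e12.4 library, and all 12 lay above Renilla at 62.8 ± 4.597 FPKM (SD, n = 3). The difference between the pairs was 0.17 (SE 0.05, limma unadjusted p = 0.00714). Ugdh, which makes UDP-glucuronate, was at 19.0 ± 2.09 against 16.1 ± 0.753 FPKM (SD, n = 6 each), a difference of 0.22 (0.07 to 0.37). Bud13, a splicing factor, was at 11.96 ± 1.74 against 9.74 ± 1.26 FPKM, and Renilla (12.2 ± 0.868) lay with the e20.1 and e21.1 guides. Pnpla7, a lysophospholipase, and Ppp1r21, an endosomal protein, differed by 0.21 and 0.28.

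Pagr1a, a subunit of the histone methyltransferase complexes of MLL3 and MLL4, differed by 1.09 (0.53 to 1.65, limma unadjusted p = 0.000846) and was not called. Its values were 1.33, 1.98 and 2.70 FPKM in e12.3 cells, 2.14, 8.31 and 4.34 in e12.4 cells, 12.6, 16.3 and 7.99 in e20.1 cells and 4.41, 4.23 and 5.23 in e21.1 cells. The high values were those of e20.1, and the e21.1 libraries lay within the e12.4 range. The Renilla libraries ranged from 2.2204 to 7.59 FPKM.

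**Figure D2:**
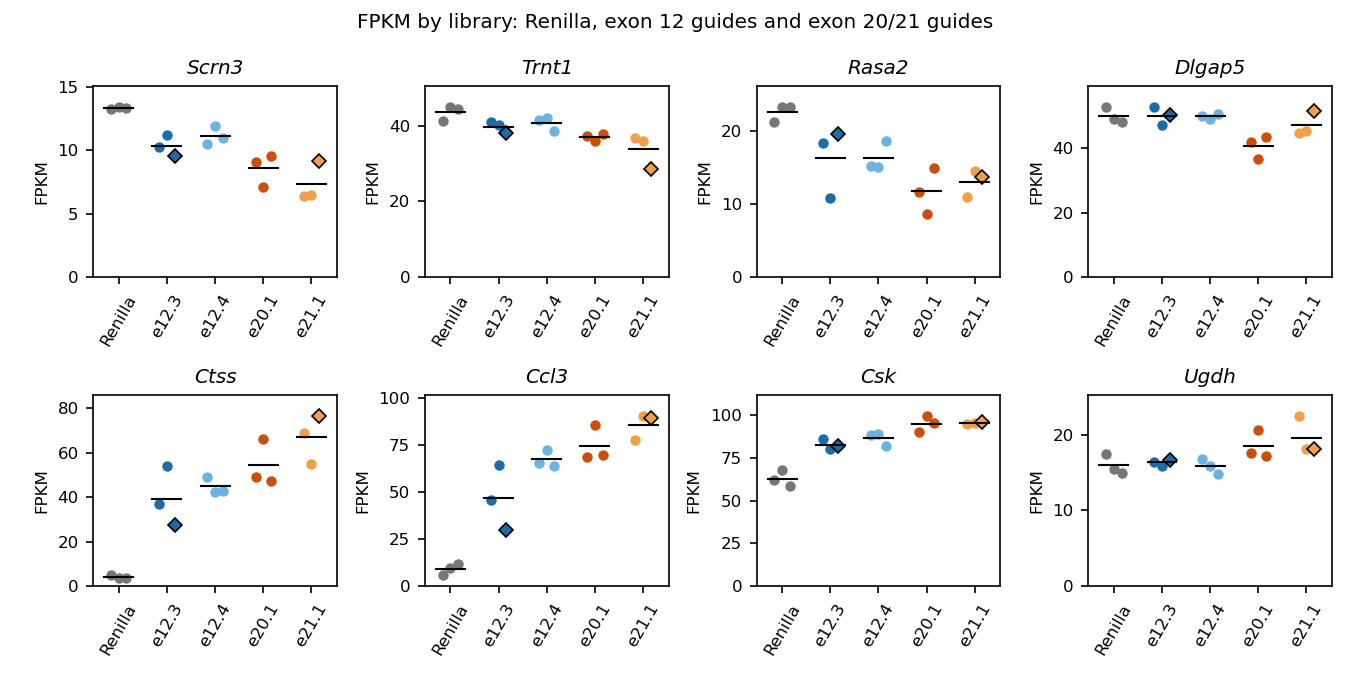
FPKM (y axes from 0) of 8 genes in each library of Renilla and the 4 guides; points are libraries, black lines are means of 3, and outlined diamonds are e12.3 replicate 3 and e21.1 replicate 3. Scrn3, Trnt1, Csk and Ugdh do not overlap between the pairs, whereas Rasa2, Dlgap5, Ctss and Ccl3 do, and none of the 8 was called between the pairs.

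Monocyte and macrophage genes had the largest median difference of the lists with at least 5 tested members when all 12 libraries were used, and a smaller one than the RAS-MAPK list (0.16 against 0.20) without the 2 libraries that stood apart. Of 26 tested members, 22 were higher with e20.1 and e21.1, 0 were called, and the median with all 12 was 0.24, beside -0.0012 over all tested genes, 49.5% of which were higher. Among the 897 genes called higher with the 4 guides than with Renilla, 81.3% were higher with e20.1 and e21.1. Of the 217 at least 2-fold higher, 91.7% were (median 0.19), so the share is not particular to monocyte genes. In bulk RNA, fewer cells of a type and less RNA per cell cannot be told apart. Ctss, the lysosomal protease cathepsin S, was at 37.0, 53.7 and 27.3 FPKM in e12.3 cells and 49.1, 42.4 and 43.0 in e12.4 cells. It was at 49.2, 66.0 and 47.4 FPKM in e20.1 cells and 69.0, 54.9 and 76.6 in e21.1 cells, against 3.57 to 4.97 FPKM with Renilla. The lowest of the 12 was e12.3 replicate 3 and the highest e21.1 replicate 3, and the pairs overlap between 47.4 and 53.7 FPKM. The difference of Ctss was 0.52 (0.21 to 0.83, limma unadjusted p = 0.00271) and 0.36 without the 2 libraries. Ccl3, the chemokine MIP-1 alpha, was at 80.4 ± 9.76 against 57.2 ± 15.9 FPKM (SD, n = 6 each), a difference of 0.53, or 0.38 without the 2. Irf5, a transcription factor of inflammatory macrophages, and Adgre1, the antigen F4/80, differed by 0.28 and 0.24, or by 0.17 and 0.13 without the 2. Csf1r, the receptor for macrophage colony-stimulating factor, was at 13.0 ± 1.85 against 10.6 ± 3.15 FPKM, a difference of 0.31 (-0.02 to 0.64). Milr1, an inhibitory immune receptor, and Mndal, an interferon-inducible protein of the HIN-200 family, differed by 0.42 and 0.49, and by 0.25 and 0.26 without the 2.

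By library, the median of the 26 monocyte genes above the Renilla mean was 0.32 log2 units in e12.3 replicate 3 and 0.90 to 1.54 in the other 5 libraries of e12.3 and e12.4. It was 0.77 in e21.1 replicate 3 and 1.05 to 1.42 in the other 5 libraries of e20.1 and e21.1. The lowest library of each pair is thus the one that stood apart on the first component, and without them the range of the exon 20/21 pair lies within that of the exon 12 pair. Per guide the medians were 1.35 (e20.1), 1.27 (e12.4), 1.20 (e21.1) and 0.81 (e12.3). The part of these libraries in the difference between the pairs was measured by leaving them out, which reduced the median from 0.24 to 0.16.

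Granule genes did not order by pair. Mpo, myeloperoxidase of primary granules, was at 377, 384 and 1025 FPKM in e12.3 cells and 182, 138 and 133 in e12.4 cells. It was at 326, 327 and 258 FPKM in e20.1 cells and 178, 146 and 664 in e21.1 cells, all below Renilla (1084 to 1376). Outside the 2 libraries that stood apart, which were the highest of the 12, Mpo was lower with e12.4 and e21.1 than with e12.3 and e20.1, so the guides of a pair stood farther apart than the pairs. The difference between the pairs was -0.01 (-0.68 to 0.66), and that between e12.4 and e12.3 was -1.82 (limma unadjusted p = 0.000941, not called with all libraries). Ctsg, the granule protease cathepsin G, differed between the pairs by -0.14 (-0.49 to 0.21). Of 12 primary granule genes 0 were called (median -0.06, 8 lower), and of 16 tested late neutrophil granule genes 0 were called (median -0.03, 9 lower). Itgam, the integrin CD11b, was at 85.1 ± 20.14 against 87.6 ± 20.7 FPKM (SD, n = 6 each), a difference of -0.03 (-0.41 to 0.34).

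Genes of the interleukin-3 receptor and its STAT5 feedback had a median difference of 0.02 over 21 tested members, 14 higher and 0 called. Csf2rb, the signalling beta chain of the receptor, was at 109 ± 18.5 against 109.7 ± 24.3 FPKM (SD, n = 6 each), a difference of 0.01 (-0.26 to 0.27), while each pair stood above Renilla by 1.20 and 1.19 log2 units. Those 2 values share the Renilla libraries. Il3ra, the alpha chain, differed by 0.18 (-0.08 to 0.43). Of the feedback and target genes, 3 had an unadjusted p under 0.05, namely the cytokine oncostatin M (Osm, 0.32, 0.10 to 0.54) and the inhibitors of cytokine signalling Socs2 (0.17, 0.03 to 0.32) and Socs3 (0.39, 0.05 to 0.73). Osm was at 12.7, 15.1 and 13.3 FPKM in e12.3 cells and 25.3, 18.7 and 18.9 in e12.4 cells. It was at 17.3, 24.5 and 17.8 FPKM in e20.1 cells and 22.5, 20.4 and 26.9 in e21.1 cells. The low libraries were the 3 of e12.3, and e12.4 lay within the range of the other pair.

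RAS-MAPK feedback and immediate-early genes, which respond within minutes to growth signals, had a median difference of 0.20 over 18 tested members, 15 of them higher and 0 called. The median was the same to 2 decimals without the 2 libraries (0.20). By guide, the medians above Renilla were 0.851 (e21.1), 0.588 (e20.1), 0.578 (e12.4) and 0.402 (e12.3), so e20.1 and e12.4 nearly coincide. By library the pairs overlapped, with e12.3 replicate 3 at 0.82 above e20.1 replicates 1 and 3 at 0.508 and 0.303. Egr1, an immediate-early transcription factor, was at 4.70, 4.41 and 5.25 FPKM in e12.3 cells and 12.8, 7.49 and 5.37 in e12.4 cells. It was at 8.53, 9.29 and 6.01 FPKM in e20.1 cells and 12.42, 10.1 and 17.6 in e21.1 cells, against 0.335 to 0.7 FPKM with Renilla. The lowest libraries were the 3 of e12.3 and the highest was e21.1 replicate 3, while the e12.4 range overlapped with those of e20.1 and e21.1. The difference of Egr1 was 0.62 (0.25 to 0.99, limma unadjusted p = 0.00278), and within the pairs e12.4 stood 0.65 above e12.3 and e21.1 stood 0.67 above e20.1. Fos differed by 0.60 (0.08 to 1.13), with its highest value, 34.8 FPKM, in e21.1 replicate 3 and the other 11 guide libraries between 6.92 and 14.7 FPKM. Ier3, an early-response gene, differed by 0.33, and Dusp5, a phosphatase of ERK, by 0.22.

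**Figure D3:**
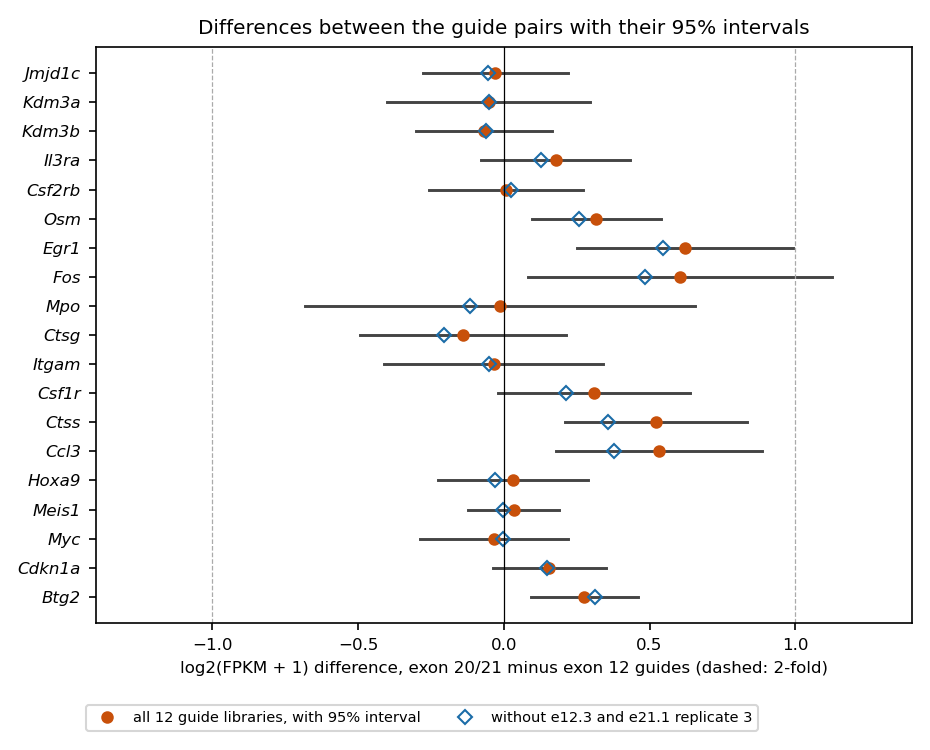
Log2(FPKM + 1) difference between the pairs (x axis, exon 20/21 minus exon 12 guides) for 19 genes of the text; orange circles with bars are the estimates from all 12 guide libraries with 95% intervals, open diamonds the estimates without the 2 libraries that stood apart, and dashed lines mark 2-fold. Every interval other than that of Fos lies within 2-fold, and Mpo has the widest.

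Targets of the MLL fusion did not order by pair. Of 20 tested targets 0 were called and the median was 0.0043 (-0.03 without the 2 libraries), with 10 higher and 10 lower. Hoxa9 and Meis1, homeobox genes that sustain MLL leukaemia, differed by 0.03 (-0.22 to 0.29) and 0.03 (-0.12 to 0.19). Hoxa9 was at 93.6 ± 13.3 and 91.2 ± 8.94 FPKM and Meis1 at 35.2 ± 1.43 and 34.5 ± 2.88 FPKM with the exon 20/21 and the exon 12 guides (SD, n = 6 each). Cdk6, a cyclin-dependent kinase of the G1 phase and a target of the fusion, had the smallest p of that list, at 99.95 against 115 FPKM (-0.23, -0.53 to 0.06). Myc, a transcription factor that drives growth, was at 105 ± 16.6 against 108 ± 22.5 FPKM, a difference of -0.03 (-0.29 to 0.22). In the stem and progenitor list, 17 genes were tested and 12 were lower. Ifitm1, an interferon-inducible membrane protein, was at 337 ± 58.8 against 241 ± 79.3 FPKM (SD, n = 6 each), and Kit, the stem cell factor receptor, differed by -0.25 (-0.56 to 0.05).

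Proliferation and stress programmes gave no called gene. The medians were -0.04 over 32 MYC target and ribosome biogenesis genes (26 lower, and a median of 2.3e-05 without the 2 libraries), -0.00725 over 28 S-phase genes and -0.01 over 24 genes of G2 and mitosis. The p53 target list had a median of 0.11 (0.10 without the 2 libraries), with 15 of 18 tested genes higher. By library, its median above Renilla was 0.346 to 0.411 with e20.1 and e21.1 and 0.18 to 0.342 with e12.3 and e12.4. These ranges do not overlap but nearly touch, and the separation was not tested. Cdkn1a, the cell-cycle inhibitor p21, was at 139 ± 15.8 against 125 ± 19.4 FPKM (SD, n = 6 each), a difference of 0.16 (-0.04 to 0.35). Btg2, an antiproliferative p53 target, ranged from 5.37 to 6.68 FPKM with e20.1 and e21.1 and from 4.08 to 5.75 FPKM with e12.3 and e12.4 (0.28, 0.09 to 0.46, and 0.31 without the 2 libraries). Pmaip1, the death-promoting BCL2 protein Noxa, differed by 0.22 (0.04 to 0.39). Genes of the ATF4 amino acid response were lower in 29 of 31 cases with a median of -0.07, and genes of cholesterol synthesis and uptake in 24 of 25 with a median of -0.09. With all 12 libraries, none of these 56 genes had an unadjusted p under 0.05, and their largest intervals reached 1.04 and 1.06 log2 units. Without the 2 libraries, 2 genes of each list had an unadjusted p under 0.05 and 0 were called. By guide, the cholesterol medians above Renilla were 0.51 (e12.4), 0.34 (e20.1), 0.09 (e21.1) and 0.09 (e12.3), so each pair holds a high and a low guide.

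Interferon, NF-kB and antigen presentation genes were mostly higher with e20.1 and e21.1, without a call. Of 17 tested interferon response genes 15 were higher (median 0.15, or 0.10 without the 2 libraries), of 17 NF-kB genes 15 (0.10, or 0.06 without them) and of 13 MHC class I genes 11 (0.14, or 0.10 without them). Xaf1, an interferon-inducible pro-apoptotic protein, was at 1.26, 2.25 and 1.41 FPKM in e12.3 cells, 2.95, 2.09 and 1.76 in e12.4 cells, 3.46, 2.33 and 2.85 in e20.1 cells and 3.31, 3.25 and 3.37 in e21.1 cells. The 3 e21.1 libraries lay above all 6 of the exon 12 pair, and e20.1 overlapped with e12.4. The difference of Xaf1 was 0.49 (0.23 to 0.75, limma unadjusted p = 0.00123) and 0.46 without the 2 libraries. Zfp36, which encodes the mRNA decay factor tristetraprolin, was at 33.1 ± 6.70 against 25.2 ± 4.34 FPKM (SD, n = 6 each), a difference of 0.38. Erap1, which trims peptides for MHC class I, went the other way (-0.28, -0.56 to 0.01).

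**Figure D4:**
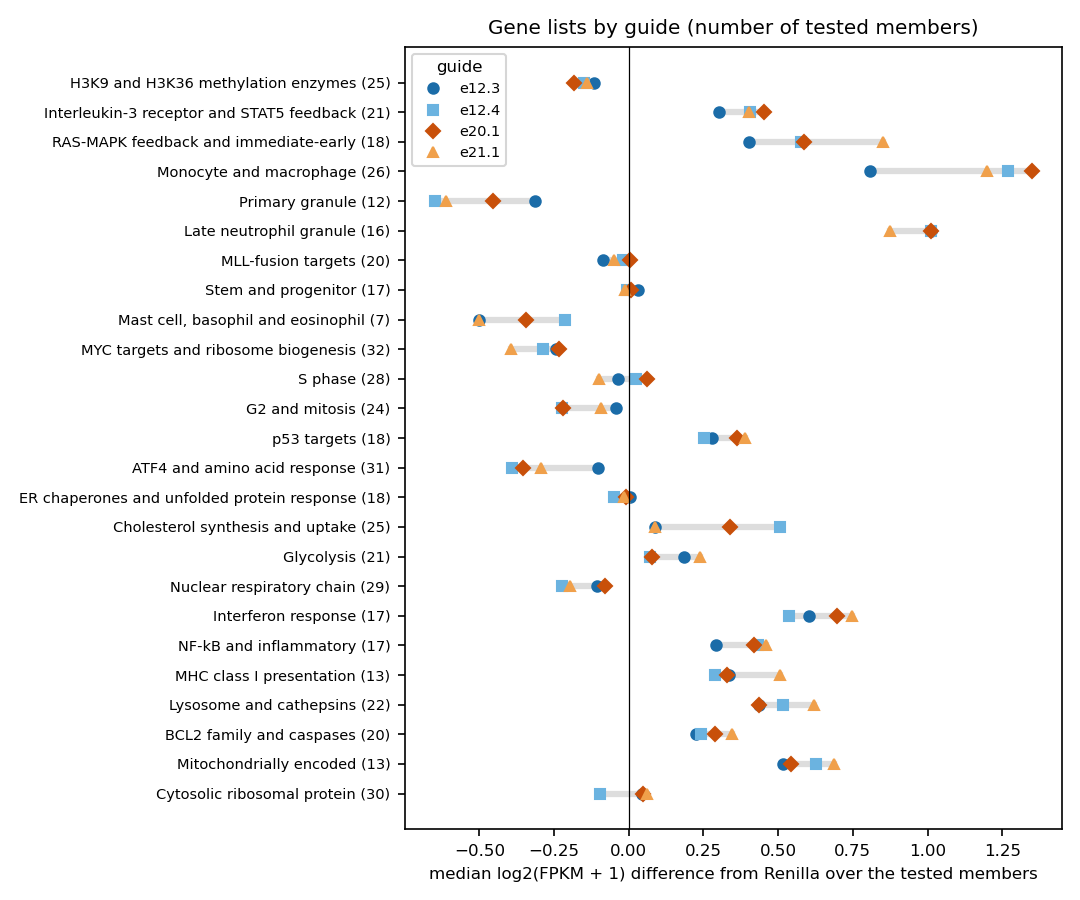
Median log2(FPKM + 1) difference from Renilla over the tested members of each gene list with at least 5 tested members (x axis), one symbol per guide; blue symbols are e12.3 and e12.4, orange symbols e20.1 and e21.1, and grey bars span the 4 guides. All 4 guides share the Renilla libraries, and in the primary granule and cholesterol lists the e20.1 and e21.1 symbols lie between those of e12.3 and e12.4. In the p53 target, interferon response and BCL2 family lists both lie above those of e12.3 and e12.4. The same holds by a narrow margin in the RAS-MAPK and cytosolic ribosomal protein lists.

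Markers of other cell types differed in level between lists. Of the 9 to 13 genes in the erythroid, megakaryocyte, lymphoid and dendritic lists, 8, 4, 10 and 8 stayed below 1 FPKM in all 18 libraries, and 0 were listed at 0 in all 18. Of the 10 mast cell, basophil and eosinophil genes, 2 stayed below 1 FPKM. Summed FPKM of the dendritic list ranged from 29.6 to 47 with e20.1 and e21.1 and from 20.4 to 45.4 with e12.3 and e12.4, that of the lymphoid list from 3.48 to 10.6 and from 4.05 to 11.4, and that of the mast cell list from 37.9 to 93 and from 43.9 to 95.2. The stromal and endothelial list summed to 582 to 1150 FPKM with e20.1 and e21.1 and to 440 to 916 FPKM with e12.3 and e12.4, with 7 of its 10 genes below 1 FPKM in all 18 libraries. Most of that sum was Vim, the filament protein vimentin, which blood cells make too, at 789.7 ± 187 against 745 ± 188 FPKM (SD, n = 6 each). Id2, an inhibitor of transcription factors counted in the dendritic list, was among the genes without overlap, at 3.76 ± 0.37 against 2.81 ± 0.331 FPKM (SD, n = 6 each, difference 0.32). The part of other cell types in the differences was not tested.

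Against Renilla, limma called 818 of 11550 genes (7.08%) with e12.3 and e12.4, 670 higher (5.8%) and 148 lower (1.28%), and 1250 (10.8%) with e20.1 and e21.1, 877 higher (7.59%) and 373 lower (3.23%). Without the 2 libraries the counts were 1571 and 1778. These comparisons share the Renilla libraries, and their counts are not a test of the difference between the pairs. To follow the size of the response, the 897 genes called higher and the 371 called lower with the 4 guides together against Renilla were read in each guide, a choice that rests on the same guide libraries. The pair difference had a median of 0.08 over the 897 genes, 729 of them (81.3%) higher with e20.1 and e21.1, and of -0.06 over the 371 genes, 304 of them lower. Without the 2 libraries these medians were 0.05 and -0.03. Over the 217 genes at least 2-fold higher than in Renilla the median was 0.19, or 0.12 without the 2 libraries.

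The guides did not order by pair in this respect. Median differences from Renilla over the 897 genes were 0.55 in e12.3 cells, 0.61 in e20.1 cells, 0.67 in e12.4 cells and 0.74 in e21.1 cells. The lower and the higher guide of each pair interleave, and without the 2 libraries the medians were 0.56, 0.61, 0.67 and 0.70 in the same order. Over the 371 lower genes they were -0.29, -0.37, -0.39 and -0.42, again in that order. By library, the 897 genes stood at 0.48 in e12.3 replicate 3, the lowest, and at 0.82 in e21.1 replicate 3, the highest. With guide e12.3 left out the pair difference of the 897 genes was 0.017, and with guide e21.1 left out 0.016, whereas without e12.4 it was 0.14 and without e20.1 0.14.

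**Figure D5:**
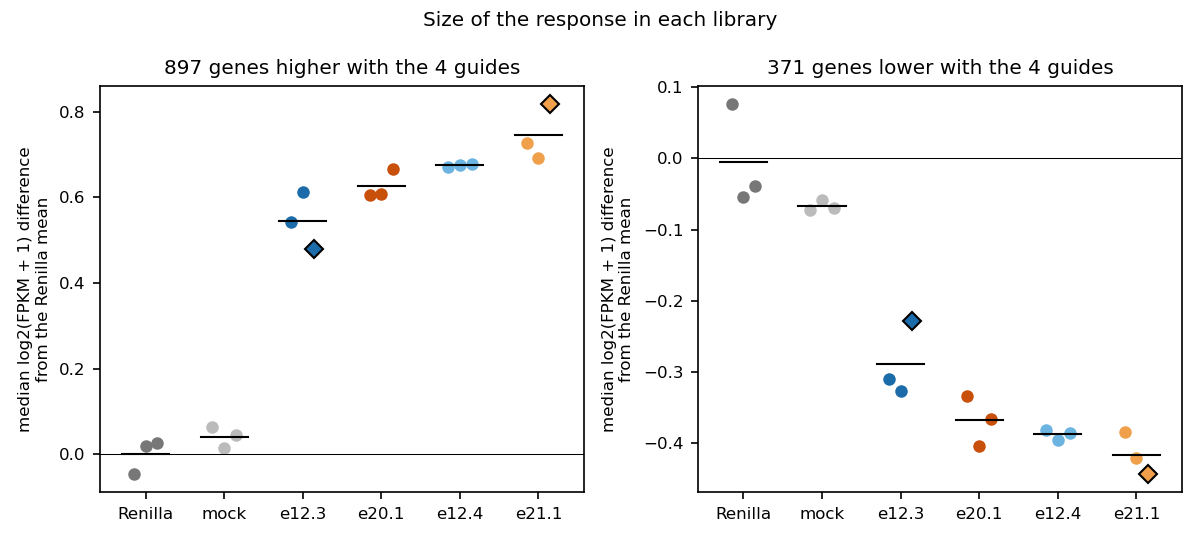
Median log2(FPKM + 1) difference from the Renilla mean (y axis) in each library over the 897 genes called higher (left) and the 371 called lower (right) with the 4 guides against Renilla; points are libraries, lines means of 3, and outlined diamonds the 2 libraries that stood apart. Guides are ordered by their medians, and the pairs alternate.

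The guides of a pair differed from each other about as much as the pairs did. Limma called 0 genes (0%) between e12.4 and e12.3 and 0 (0%) between e21.1 and e20.1, with 414 (3.58%) and 417 (3.61%) at an unadjusted p under 0.05, from 3 libraries against 3. Without the 2 libraries, 3 genes were called between e12.4 and e12.3 and 0 between e21.1 and e20.1. The 3 were BX890553.1, Mpo (-1.34) and Mgl2, a macrophage lectin (-0.89), each at an adjusted p of 0.00312, and they are named after their values were seen because of the small count. The root-mean-square log2 distance between guide means over all tested genes was 0.27 within the exon 12 pair and 0.26 within the exon 20/21 pair. Between the pairs it was 0.20 for e12.3 and e21.1, 0.21 for e12.4 and e20.1, 0.25 for e12.4 and e21.1 and 0.28 for e12.3 and e20.1. The closest guides thus came from different pairs, with e12.3 and e21.1 each holding a library that stood apart. Without the 2 libraries all 6 distances lay between 0.20 and 0.23, and each guide was 0.37 to 0.42 from Renilla. In 2681 genes (23.2%), each exon 20/21 guide mean lay on the same side of each exon 12 guide mean. That share is below the one that guide means in random order would give, so it is not read as agreement within a pair.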

How the data were processed

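Values were the FPKM that the authors deposited for 18 libraries, in a series table and in separate tables for 15 libraries that differ from it by at most 3.3e-06 FPKM. Per the submitters' processing notes, bcl2fastq 2.22.0.422, Salmon 0.13.0, DESeq2 1.22.1 in R 3.5.3 and mm10 were used; the sources used here do not give their settings. The files hold no counts. Sequencing depth was inferred from the smallest increments of FPKM multiplied by length, in single-transcript genes of at least 2000 bases (98.6 to 99.8% of low values within 10% of a whole read, against 20% for an even spread) and came to 22.2 to 194.4 M reads over the 18 libraries; these estimates entered no test.

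Values were transformed as log2(FPKM + 1). Genes averaging 1 FPKM or more in the 18 libraries entered limma-trend, run with limma 3.58.1 under R 4.3.3. The model had a mean for each of the 6 groups and no covariates, so that guides weigh equally within a pair and all groups share 1 estimate of the spread. Called means an adjusted p (Benjamini-Hochberg) under 0.05. The code was tested on simulated data. Alternatives covered pseudocounts 0.1 and 0.5, filters, the groups fitted, a replicate block, upper-quartile scaling, library weights, the unit of replication, and each library, each guide and the libraries that stood apart left out. Leaving out 3 libraries together was chosen after seeing the data.

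The 30 gene lists (629 genes), the guides and the alternatives were chosen with earlier results of these data known, so lists are described by counts and medians. Named genes are, in each direction, the 12 called genes with the largest difference (mean of at least 5 FPKM over the 12 guide libraries, a gene symbol, all 4 guide-to-guide differences of 1 sign), filled by smallest p where fewer are called, which was the case for all 24, up to 4 members of each list by smallest p, and 13 genes given always. Genes behind small counts and Pagr1a were singled out after their values were seen; Pagr1a also meets the rule. GENCODE vM21 gave positions and exons and holds 98.92% of the symbols. Tables and plots were made in Python 3.11.15 (pandas 2.3.3, numpy 2.4.6, matplotlib 3.10.9).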

Additional observations from a re-analysis of the deposited data

How the results depend on the processing

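Between the pairs, 23 of 28 alternatives called 0 genes and the other 5 called 1. The calls were Phyhip without a filter on low values (-0.11, adjusted p = 2.3e-05), Scrn3 with library weights, and BX890553.1 with e12.3 replicate 3 left out, alone, with e21.1 replicate 3, or with that library and e20.1 replicate 2 (2.12, adjusted p = 0.0198). Unadjusted p under 0.05 were counted for 119 to 298 genes with 1 library left out, 526 with weights and 681 without a filter. Leaving out 1 library gave 0 to 1 calls between the pairs, 0 to 1 between e12.4 and e12.3, 508 (without Renilla replicate 1) to 972 for the exon 12 pair against Renilla, and 809 (without Renilla replicate 2) to 1289 for the exon 20/21 pair. Jmjd1c then differed by -0.074 to 0.084. Between e12.4 and e12.3, 1 gene was called without a filter and 3 with weights or without the 2 libraries, and 1 between e21.1 and e20.1 without a filter. Against Renilla, weights gave 3853 calls for the exon 12 and 4112 for the exon 20/21 pair, the model with only the groups compared 593 for the latter, and leaving out the 2 libraries 1571 for the former. The median difference of the genes called higher against Renilla was 0.017 without guide e12.3, 0.14 (0.1393) without e12.4, 0.14 (0.1374) without e20.1 and 0.016 without e21.1. That of the genes called lower was -0.0070 without e12.3 and -0.10 without e12.4. The causes were not tested. Of 1064 values of 38 named genes under alternatives, 1008 kept their sign without a call and 4 were calls. The other 52, from 10 genes, changed sign without a call. The widest ranges among the 10 were those of Mpo (-0.92 to 0.90) and Ctsg (-0.45 to 0.17).

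The labels do not say what libraries with the same replicate number share. Their numbers were not taken as pairs, because not every correlation was over 0.1. Over 18 pairs of guide libraries with the same number, deviations from group means correlated at -0.03 to 0.76 (median 0.11, 10 over 0.1). The highest were those of e12.3 with e21.1, at 0.459, 0.452 and 0.763 for replicates 1 to 3. In all, 12 of 12 libraries correlated best with their own number, and what such libraries share was not tested. With the replicate block 0 genes were called between the pairs, with 257 at an unadjusted p under 0.05. Against Renilla 1192 and 1713 genes were called with the block, beside 818 and 1250 without it.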

Other observations

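Genes of energy metabolism and protein synthesis, not described above, differed little between the guide pairs and none was called. Nuclear genes of the respiratory chain had a median difference of 0.04 over 29 genes (21 higher), glycolysis genes 0.0088 over 21 (11 higher), the 13 mitochondrially encoded genes 0.03 (-0.06 without the 2 libraries that stood apart), and 30 cytosolic ribosomal protein genes 0.08 (27 higher). Chaperones of the endoplasmic reticulum had a median of 0.02 over 18 genes, lysosome and cathepsin genes 0.10 over 22 (20 higher), and BCL2 family and caspase genes 0.05 over 20. Among the last, Mcl1, a survival protein of myeloid cells, stood at 91.9 against 86.8 FPKM (0.08, -0.05 to 0.21). Tfeb, a transcription factor of lysosome genes, and Grn, the lysosomal protein progranulin, differed by 0.18 (-0.03 to 0.39) and 0.16 (-0.03 to 0.35). The ribosomal protein median stood apart from Renilla by 0.44 log2 units in e20.1 replicate 2, 0.33 in e21.1 replicate 3 and 0.28 in e12.3 replicate 3, and by -0.21 to 0.06 in the other 9 guide libraries.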
